A study of Mus musculus with 305 samples.

Results

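The genes described here are 8 mouse genes that break down ceramide and handle its product sphingosine: Acer2, Acer3, Asah1, Asah2, Sphk1, Sphk2, Sgpl1 and S1pr1. They were chosen by name out of 52636 genes in the count table, and all 8 were found there. The set was built around Acer2, which had been seen to be lower in mice given a heroin challenge. The challenge differences of Acer2 are therefore given as a description, without a test. The other 7 genes, and Acer2 in comparisons that do not set challenged mice against their controls, were tested.

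Bulk RNA was sequenced from 6 brain regions of 51 mice, all male, which had taken heroin, an opioid agonist, or saline by intravenous self-administration for 15 d. All were wild type and all had been through the self-administration procedure. Groups at 30 d of withdrawal were named by the drug taken and then by the drug given as challenge before a drug-seeking test of 2 h. HH mice had taken heroin and received heroin, HS mice had taken heroin and received saline, SH mice had taken saline and received heroin, and SS mice had saline both times (8 mice each). The labels give no challenge for the groups taken at 24 h of withdrawal: H24 mice had taken heroin (11 mice) and S24 mice saline (8 mice, 7 of them with a BLA library analysed here). The mouse is the replicate, and each mouse gave all its regions. The regions carry the labels PFC, NAc, dStri, BLA, vHPC and VTA, used in this field for prefrontal cortex, nucleus accumbens, dorsal striatum, basolateral amygdala, ventral hippocampus and ventral tegmental area. The challenge came with the drug-seeking test, so the drug and any behaviour that went with it cannot be told apart. The early and the late mice were not compared with each other.

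Ceramide is the hub of sphingolipid metabolism. Ceramidases cut it into a fatty acid and sphingosine, and they are told apart by the pH at which they work and by where they sit: Acer2 and Acer3 encode alkaline ceramidases, of which the Acer2 product lies in the Golgi complex, Asah1 encodes the acid ceramidase of the lysosome, and Asah2 the neutral ceramidase of the cell surface and mitochondria. The kinases encoded by Sphk1 and Sphk2 turn sphingosine into sphingosine 1-phosphate. That lipid either signals through receptors such as S1pr1, which is abundant in astrocytes and in the endothelium of brain vessels, or is cleaved for good by the lyase encoded by Sgpl1.

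Acer2 (ENSMUSG00000038007) lies on the plus strand at chr4:86874396-86934822 of GRCm38 in GENCODE M21, with 8 merged exons of 7159 bp in all. Its promoter is shown because Acer2 is the gene the comparisons turn on. The bases directly upstream of the annotated start, chr4:86874164-86874395 on the plus strand, are given from the RefSeq promoter table (GRCm38.p6), with GC boxes in capitals (GGGCGG, or CCGCCC for the other strand).
Acer2: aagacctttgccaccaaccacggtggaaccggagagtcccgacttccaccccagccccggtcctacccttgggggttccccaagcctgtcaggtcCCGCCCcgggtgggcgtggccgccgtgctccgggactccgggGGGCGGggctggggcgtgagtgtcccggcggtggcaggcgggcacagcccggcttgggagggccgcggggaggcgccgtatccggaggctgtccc
These bases are 74.6% G or C with 22 CpG steps. The median over 32851 promoter windows of the same length is 52.2% G or C, and 95.7% of the windows lie lower. The windows are matched in length, and their position relative to the start of each gene is not given here. This rank and the motif shares that follow are therefore a rough background. Both strands were searched, which found 2 GC boxes, apart from each other; 30.1% of the windows hold at least 1. The cyclic AMP response element TGACGTCA (in 1.3% of windows), the AP-1 site TGANTCA (6.4%), the glucocorticoid half-site AGAACA (15.1%) and the E-box CACGTG (5.4%) have no match in these letters.

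All libraries but 1 were analysed. Their totals ran from 19306871 to 61351955 counts with a median of 31419997. The VTA library of HH mouse 7, with 889900 counts, was left out. By median over SS and S24 mice, neuron markers peaked in regions of matching label. Dopamine neuron markers had a median score (mean log2 CPM of the list) of 8.03 in VTA and at most 1.28 elsewhere. Striatal projection neuron markers had 9.32 in dStri and 8.70 in NAc against at most 5.95 elsewhere. Excitatory neuron markers had 7.27 in PFC, 6.68 in vHPC and 6.42 in BLA, which does not tell these regions apart. VTA libraries varied widely: summed dopamine neuron markers ran from 224.9 to 4920 CPM in SH and 1645 to 4702 CPM in SS mice. In HH mice they ran from 198.7 to 3665 CPM and in HS mice from 2431 to 5369 CPM. Apart from the rest of their region stood 7 libraries, and 3 lay nearest to the BLA profile, which makes 8 besides the one left out. All 8 genes passed the filter on low counts in all 12 fits. Acer2 had at least 100 counts in every library, with group means of 196.9 to 919.5 counts, and none of the 8 genes was at 0 in any library. Sphk1 was the scarcest, with 1 count in its lowest library.

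In saline-history mice Acer2 was lower after the heroin challenge in all 6 regions, most in PFC. In PFC the SH mice had from 5.33 to 8.14 CPM (counts relative to the library total, scaled by TMM factors) with a median of 6.05, and the SS mice from 9.58 to 19.26 with a median of 13.77. The mean was 6.36 ± 1.06 CPM in SH and 13.64 ± 3.07 CPM in SS (SD, n = 8 each), so that SH mice held 46.7% of the SS level, a log2 difference of -1.10 ± 0.165 (SE). Every SH mouse lay below every SS mouse.
In NAc the SH mice ran from 8.29 to 13.16 CPM (median 11.37) and the SS mice from 16.00 to 26.66 CPM (median 18.41), again without overlap. The means were 11.29 ± 1.84 CPM in SH and 19.96 ± 3.80 CPM in SS, a log2 difference of -0.82 ± 0.145 (SE).
A full separation of this kind in the lower direction was seen in 0.00849% of all gene-by-region tests; since the gene was picked for this contrast, nothing is read from that share.

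The other 4 regions showed the same direction with overlap between the groups. In dStri, Acer2 averaged 13.35 ± 2.26 CPM in SH and 20.75 ± 5.20 CPM in SS, a log2 difference of -0.64 ± 0.143, and 7 of 8 SH mice lay below the lowest SS mouse at 14.86 CPM. In vHPC it averaged 6.24 ± 0.683 CPM in SH and 9.12 ± 2.42 CPM in SS (-0.55 ± 0.188), and 8 of 8 SH mice lay below the SS mean although just 1 lay below the lowest SS mouse. VTA, where Acer2 was most abundant, had 22.12 ± 4.83 CPM in SH and 27.88 ± 4.50 CPM in SS (-0.34 ± 0.161). BLA had 10.59 ± 2.17 CPM in SH and 13.02 ± 2.07 CPM in SS (-0.30 ± 0.151), with 6 of 8 SH mice below the SS mean. The SDs in SH mice were the smaller ones in PFC, NAc, dStri and vHPC.

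**Figure D1:**
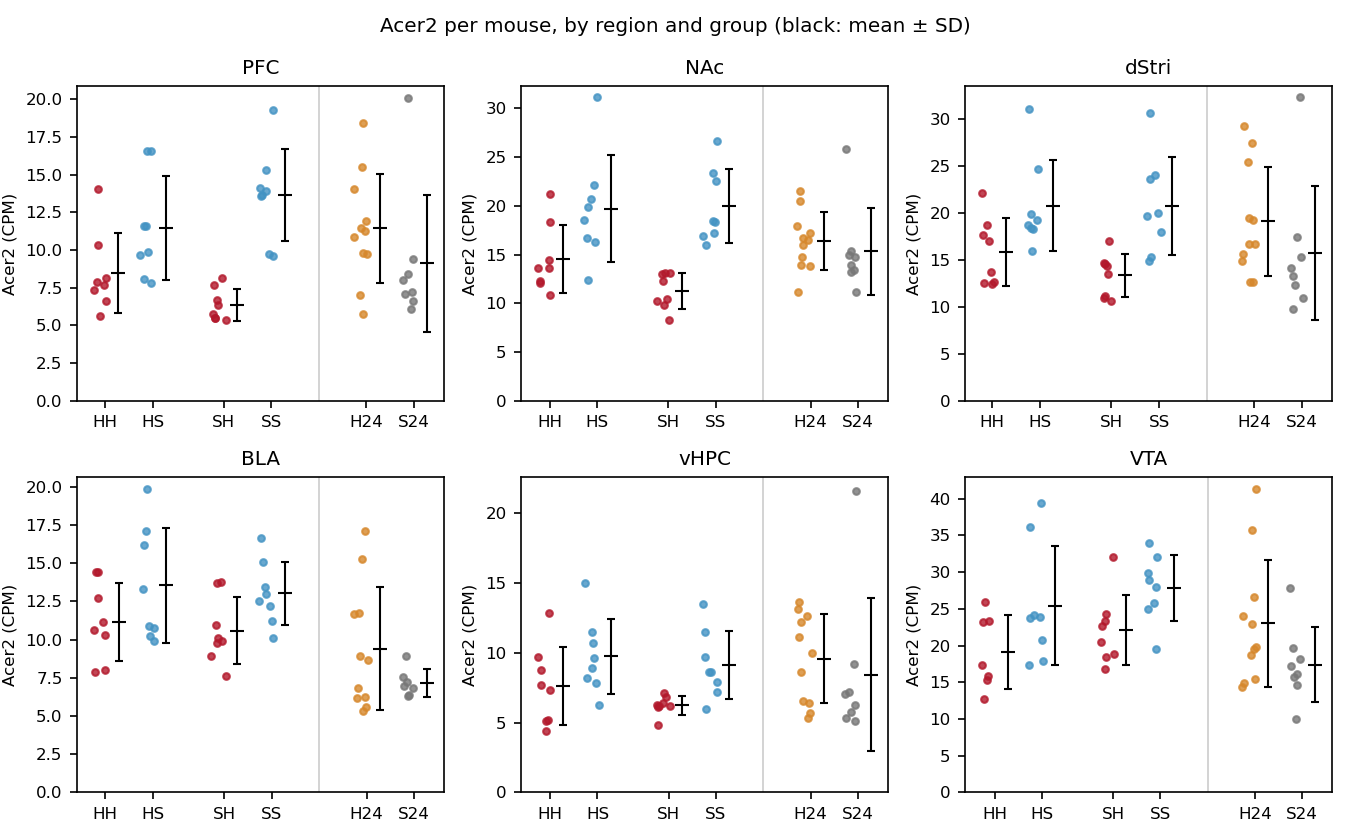
Acer2 in CPM (vertical axis, linear, from 0) in each mouse of each region; points are mice, black marks the mean ± SD, and groups run HH, HS, SH, SS (30 d) and H24, S24 (24 h). In PFC the SH mice sit between 5.33 and 8.14 CPM, all below the SS mice at 9.58 to 19.26 CPM, and S24 mouse 37 stands above the other S24 mice of PFC, NAc, dStri, vHPC and VTA.

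In heroin-history mice Acer2 was again lower after the challenge in all 6 regions, by -0.28 to -0.44. These differences were nearer to 0 than those of saline-history mice in PFC, NAc, dStri and vHPC, farther from 0 in VTA and within 0.02 of them in BLA. In PFC the HH mice ran from 5.62 to 14.06 CPM (median 7.80) and the HS mice from 7.84 to 16.59 CPM (median 10.75). The means of 8.47 ± 2.63 CPM in HH and 11.48 ± 3.44 CPM in HS gave a log2 difference of -0.44 ± 0.162 (SE), and 7 of 8 HH mice lay below the HS mean. The differences were -0.43 ± 0.144 in NAc, -0.41 ± 0.168 in VTA (7 HH mice), -0.39 ± 0.142 in dStri, -0.36 ± 0.187 in vHPC and -0.28 ± 0.151 in BLA. In none of the regions did the HH mice separate fully from the HS mice, which 0.00764% of all gene-by-region tests showed in the lower direction. Without the libraries that stand apart the vHPC difference was -0.50.
The challenge difference in heroin-history mice minus that in saline-history mice was 0.66 ± 0.230 in PFC, 0.39 ± 0.204 in NAc, 0.24 ± 0.201 in dStri, 0.19 ± 0.265 in vHPC, 0.02 ± 0.213 in BLA and -0.08 ± 0.233 in VTA. It was not tested, because it is built from the values that chose the gene.
Taking both histories together, SH and HH mice (16 in all) held 59.1% of the SS and HS level in PFC, 65.3% in NAc, 70.3% in dStri, 73.4% in vHPC, 77.7% in VTA and 81.9% in BLA.

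The sample codes of the BLA libraries split the 30 d mice into 2 sets, whose nature the labels do not give, and the values were taken within each. Between SH and SS mice, Acer2 was lower in both sets in all 6 regions: in PFC by -0.82 in the set with 4 SH and 3 SS mice and by -1.24 in the set with 4 SH and 5 SS mice, as differences of mean log2 CPM. Between HH and HS mice the set with 6 HH and 6 HS mice gave -0.62 in PFC, and differences of -0.33 to -0.55 in the other regions. The set with 2 HH and 2 HS mice gave 0.11 in PFC and -0.02 to -0.20 elsewhere. So few mice cannot show whether the difference is absent in that set, and the difference between the sets was not tested. Set and history were partly bound together, since 12 of the 16 heroin-history mice were in the same set.

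Markers of vessel and meningeal cells were lower in PFC of SH mice, as Acer2 was, and so were those of other lists. The endothelial and mural list summed to 244.2 to 299.9 CPM in SH and 257.7 to 346.3 CPM in SS mice, with 8 of 9 markers lower and a score difference of -0.15. Meningeal fibroblast markers summed to 21.51 to 47.09 CPM in SH and 35.65 to 77.57 CPM in SS mice, with 8 of 8 markers lower and a score difference of -0.76. Oligodendrocyte markers were lower in PFC as well (10 of 10, score difference -0.51). So were microglia (5 of 5, -0.09), oligodendrocyte precursor (3 of 3, -0.09), blood (4 of 4, -0.10) and astrocyte markers (6 of 7, -0.07). Excitatory neuron markers were higher (5 of 6, 0.08). In NAc the endothelial and mural score differed by -0.09 and the meningeal score by -0.28, and in dStri by -0.09 and 0.06. In VTA the meningeal score was higher in SH mice by 0.63. The dopamine neuron score in VTA differed by -0.69 between SH and SS mice and by -0.74 between HH and HS mice. In both, 5 of 5 dopamine neuron markers were lower, and their part in the Acer2 differences of VTA was not tested. None of these marker genes was called, and none of the markers tested was at 0 in all libraries. With the endothelial and mural score as a covariate the Acer2 difference between SH and SS mice was -0.92 in PFC, -0.71 in NAc and -0.56 in dStri, and with the meningeal score it was -1.12, -0.80 and -0.64. Between HH and HS mice in PFC the meningeal score differed by -0.74, with 8 of 8 markers lower and 7 of 8 HH mice below the HS mean, and the oligodendrocyte score by -0.35, with 10 of 10 markers lower; with these scores as covariates the Acer2 difference was -0.46 and -0.49 in place of -0.44. The endothelial and mural score differed by -0.05 between HH and HS mice in PFC, with 6 of 9 markers lower. In dStri that score was lower in HH mice by -0.22, with 9 of 9 markers lower. With it as a covariate the Acer2 difference in dStri was -0.17 in place of -0.39. In tissue libraries, fewer cells of a type and less of a transcript per cell cannot be told apart.

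Heroin history gave no called difference in Acer2. HS mice, against SS mice that are also part of the challenge comparison, differed by -0.25 ± 0.160 (SE) in PFC and by values between -0.13 and 0.10 in the other regions, with adjusted p-values of 0.987 to 1 in edgeR's quasi-likelihood test. After the challenge the HH mice had 8.47 ± 2.63 CPM and the SH mice 6.36 ± 1.06 CPM in PFC. The log2 difference was 0.41 ± 0.165, with an adjusted p of 0.999 by edgeR. In NAc the HH mice had 14.60 ± 3.49 CPM and the SH mice 11.29 ± 1.84 CPM (0.37 ± 0.146, not called). VTA had the opposite sign, -0.21 ± 0.168. The HH and SH mice are the challenged mice, the HS and SS mice are their controls, and the gene was chosen for its lower level after the challenge. The sizes of HH minus SH and of HS minus SS are therefore shaped by that choice, and nothing is read from them. Over both challenges, the 16 heroin-history mice differed from the 16 saline-history mice by -0.17 to 0.19 over the 6 regions, and no region was called. This pooled comparison draws on the same mice. Over all genes and regions, 0% of 117787 tests were called for each of the 3 history comparisons by edgeR, and an unadjusted p under 0.05 was found in 3826 to 5683 of them; the counts by DESeq2 were 0 to 2.

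At 24 h of withdrawal, where the labels give no challenge, the Acer2 difference between H24 and S24 mice was positive in all 6 regions, and none was called. In VTA the H24 mice ran from 14.38 to 41.31 CPM (median 19.82) and the S24 mice from 9.96 to 27.79 CPM (median 16.67), a log2 difference of 0.40 ± 0.195 with an adjusted p of 0.975 by edgeR. In BLA the H24 mice ran from 5.33 to 17.08 CPM (median 8.67), both below and above the 7 S24 mice at 6.33 to 8.96 CPM (median 6.95), a difference of 0.39 ± 0.214. PFC gave 0.33 ± 0.209, dStri 0.28 ± 0.192, vHPC 0.18 ± 0.262 and NAc 0.10 ± 0.130. S24 mouse 37, whose BLA was not analysed here, had the highest Acer2 of the S24 mice in the 5 regions it gave. Without it, a choice made after its values were seen, the differences were 0.61 ± 0.171 in PFC, 0.52 ± 0.160 in dStri, 0.55 ± 0.202 in vHPC, 0.25 ± 0.105 in NAc and 0.53 ± 0.189 in VTA, with adjusted p-values of 0.353 to 1 by edgeR. No gene was called in this comparison (0% of 110940 tests), an unadjusted p under 0.05 was found in 5475 of them, and 41 were called by DESeq2, none of them Acer2. Without S24 mouse 37, edgeR called 40 of 18862 genes in NAc, none of the 8 genes or of the pathway list among them, and 0 in PFC, dStri, vHPC and VTA, where 539 to 878 genes had an unadjusted p under 0.05. Without the libraries that stand apart the difference was 0.53 in VTA and 0.50 in BLA. The endothelial and mural score was higher in H24 mice by 0.03 to 0.16 over the regions, and with it as a covariate the Acer2 difference was -0.06 in NAc and 0.04 to 0.29 elsewhere. Blood markers were higher in H24 mice in all 6 regions (4 of 4 markers in each), with score differences of 0.19 in VTA to 0.65 in BLA; their part in the Acer2 differences was not tested. The meningeal score was lower in H24 mice by -0.53 in VTA, in 11 of 11 mice, and with it as a covariate the VTA difference was 0.71 ± 0.177 (SE) with an adjusted p of 1 by edgeR.

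The 6 regions are not 6 independent views of Acer2, because its level followed the mouse. With the mean of each group subtracted, a mouse with high Acer2 in NAc had high Acer2 in the other regions too. Among the 30 d mice all 15 pairs of regions correlated positively. Between PFC and VTA, r was 0.82 and rho 0.79 over 31 mice, with a permutation p of 1e-05 for both (3e-05 and 5e-05 adjusted over the 15 pairs); 1e-05 is the smallest that 100000 permutations can give. Between NAc and BLA, the weakest pair, r was 0.43 and rho 0.37 over 32 mice (adjusted permutation p of 0.0144 and 0.0383). The median over the pairs was 0.63, every adjusted p for r was under 0.05, and without the 2 mice farthest from the median r ran from 0.26 to 0.80. Within the 2 code sets r was positive for all 15 pairs, for PFC and VTA 0.84 over 18 mice and 0.86 over 13 mice.

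The 24 h mice, whose values the choice of the gene did not use, gave correlations of similar size. All 15 pairs were positive, r ran from 0.44 (BLA and vHPC) to 0.87 (NAc and vHPC) with a median of 0.73, and the adjusted permutation p was under 0.05 in 14 pairs for r and in 11 for rho. Without the 2 farthest mice r ran from 0.17 to 0.75. For NAc and vHPC rho was 0.90 over 19 mice (adjusted permutation p of 0.00015). Among all genes with at least 1 CPM in every region, the median correlation over the 15 pairs was 0.01 for the middle gene, and Acer2 lay above 99.9% of 13665 genes at 30 d and above 99.8% of 13711 genes at 24 h.
Vwf, the gene most like Acer2 in the comparison further on, had a median of 0.66 at 30 d and 0.60 at 24 h, and the other 4 genes of that kind lay above 98.9% to 99.8% of genes at 30 d and above 97.2% to 99.3% at 24 h.
Of the other 7 genes, 6 passed that minimum and their medians ran from -0.10 (Asah1 at 30 d) to 0.11 (S1pr1 at 24 h). Sphk1 was under the minimum in some regions.

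**Figure D2:**
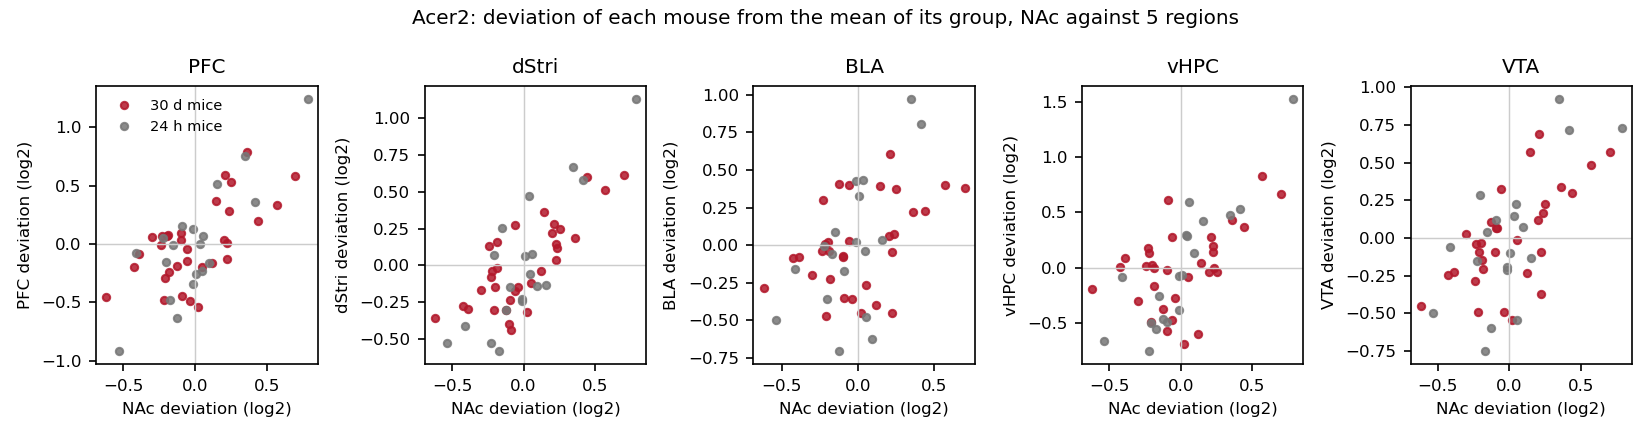
Acer2 in each mouse as the difference from the mean of its own group and region (log2), NAc on the horizontal axis and one other region per panel on the vertical axis, with 30 d mice in red and 24 h mice in grey. Mice high in NAc are high in the other regions, with r for NAc and dStri of 0.77 at 30 d and 0.84 at 24 h; the point at the upper right of the PFC, dStri and vHPC panels is S24 mouse 37.

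Acer2 was therefore also averaged over regions within each mouse, a summary chosen after this pattern was seen. Over the 5 regions other than VTA, the SH mice had a mean log2 CPM of 2.98 to 3.44 (median 3.13). The SS mice had 3.62 to 4.21 (median 3.75), with no overlap. These are the values that chose the gene. The share of all genes that separate in this summary was not computed, so nothing is read from the separation. The HH mice had 3.03 to 3.96 (median 3.34) and the HS mice 3.42 to 4.40 (median 3.72), with overlap. The heroin-history mice exceeded the saline-history mice by 0.11, p = 0.288 in a two-sided permutation test within challenge, which draws on the same mice.
At 24 h, over the 5 regions other than BLA, the H24 mice averaged 3.86 ± 0.38 (SD, n = 11) and the S24 mice 3.57 ± 0.47 (SD, n = 8). The difference of 0.29 gave p = 0.155 in a two-sided exact permutation test over 75582 arrangements, and 8 of 11 H24 mice lay above the S24 mean.
That value rested on S24 mouse 37, whose 4.65 was the highest of all 19 mice, against 3.06 to 3.62 in the other S24 mice, and whose VTA library stands apart from its region. Without it the difference was 0.45, with p = 0.0108 by the exact permutation test, and leaving out any other mouse gave differences of 0.22 to 0.35 and p of 0.0816 to 0.288.

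None of the 3 other ceramidase genes was called in any comparison, beside 0% to 0.0416% of the tests of all genes per comparison by edgeR. Acer3, the other alkaline ceramidase, had 25.28 ± 4.19 CPM in SH and 26.45 ± 3.21 CPM in SS mice in PFC (SD, n = 8 each), a log2 difference of -0.07 ± 0.0836 (SE), and 24.26 ± 3.00 CPM in HH and 25.59 ± 2.12 CPM in HS mice in NAc (-0.08 ± 0.0882). Its 48 differences over regions and comparisons lay between -0.20 and 0.14. Asah1, the acid ceramidase, had 59.02 ± 6.48 CPM in SH and 61.17 ± 2.94 CPM in SS mice in PFC (-0.05 ± 0.0629), and its 48 differences lay between -0.13 and 0.18.
Asah2, the neutral ceramidase, varied more, in BLA and vHPC. In BLA it had 20.01 ± 5.68 CPM in 11 H24 and 15.57 ± 2.22 CPM in 7 S24 mice, a log2 difference of 0.36 ± 0.148 (p of 0.0233, adjusted p of 0.671 by edgeR). In vHPC the HH mice had from 9.63 to 36.60 CPM (median 16.12) and the SH mice from 10.11 to 18.43 CPM (median 13.25), a difference of 0.50 ± 0.197 (p of 0.0158, adjusted p of 0.658 by edgeR). The highest BLA values, 31.50 CPM in H24 mouse 39 and 28.61 CPM in H24 mouse 42, are from libraries that stand apart, and in vHPC so is HH mouse 18 with 26.54 CPM. Without such libraries Asah2 differed by 0.19 ± 0.110 in BLA between H24 and S24 mice and by 0.37 ± 0.205 in vHPC between HH and SH mice. In BLA, HH minus SH was 0.33 with and without them, and the heroin-history mice minus the saline-history mice 0.34 ± 0.097 without them (adjusted p of 0.520 by edgeR) against 0.26 with them. Choroid plexus markers were higher in the same groups. The score difference was 2.26 in BLA at 24 h. Between HH and SH mice it was 1.83 in vHPC and 1.19 in BLA. The oligodendrocyte score was higher by 0.27 in vHPC and 0.19 in BLA between HH and SH mice. In BLA at 24 h it was higher by 0.13 (10 of 10 markers), though 6 of 11 H24 mice lay below the S24 mean. Over 191 libraries of HH, HS, SH and SS mice, Asah2 had r of 0.46 with the oligodendrocyte and 0.39 with the choroid plexus score. The mean of region and group was subtracted for both. The part of either list in the Asah2 differences was not tested.

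Neither sphingosine kinase, nor the lyase, nor the receptor was called in any comparison. Sphk2, the other kinase, had 23.03 ± 3.65 CPM in SH and 23.60 ± 2.64 CPM in SS mice in PFC, and its differences lay between -0.16 and 0.20. The exons of Sphk2 overlap antisense genes, Dbp among them, over 912 bp, and those of Sphk1 overlap antisense Gm29292 over 192 bp; the kit keeps strand, but the strand setting of the counting is not given in the sources used here.
Sphk1, the cytosolic kinase, had group means of at most 2.18 CPM outside VTA. Its differences ran from -0.68 to 0.99 and its SEs were 0.288 to 0.605 between SH and SS mice.
Sgpl1 kept its 48 differences between -0.15 and 0.10. It had 28.13 ± 2.17 CPM in SH and 27.64 ± 1.80 CPM in SS mice in PFC.
S1pr1 had 162.0 ± 12.76 CPM in SH and 182.2 ± 16.09 CPM in SS mice in VTA, the smallest p among the S1pr1 differences (-0.17 ± 0.067, p of 0.0164, adjusted p of 0.900 by edgeR).
Over the 7 genes other than Acer2, 0 of 336 tests were called by edgeR, 11 had an unadjusted p under 0.05 (3.27%, against 4.22% of the tests of all genes), and DESeq2 called none. The background of calls over all genes was 0.00340% for SH against SS, 0.00424% for HH against HS, 0.0416% for both challenges together and 0% for the interaction. Between SH and SS mice the median difference of the 7 genes was -0.02 over 42 tests, with 25 lower and 17 higher, and that of all genes tested was 0. In HH against HS mice it was 0.02 over 42 tests, with 20 lower and 22 higher. Of the tests of all genes, 51.2% were lower in each of these comparisons.

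**Figure D3:**
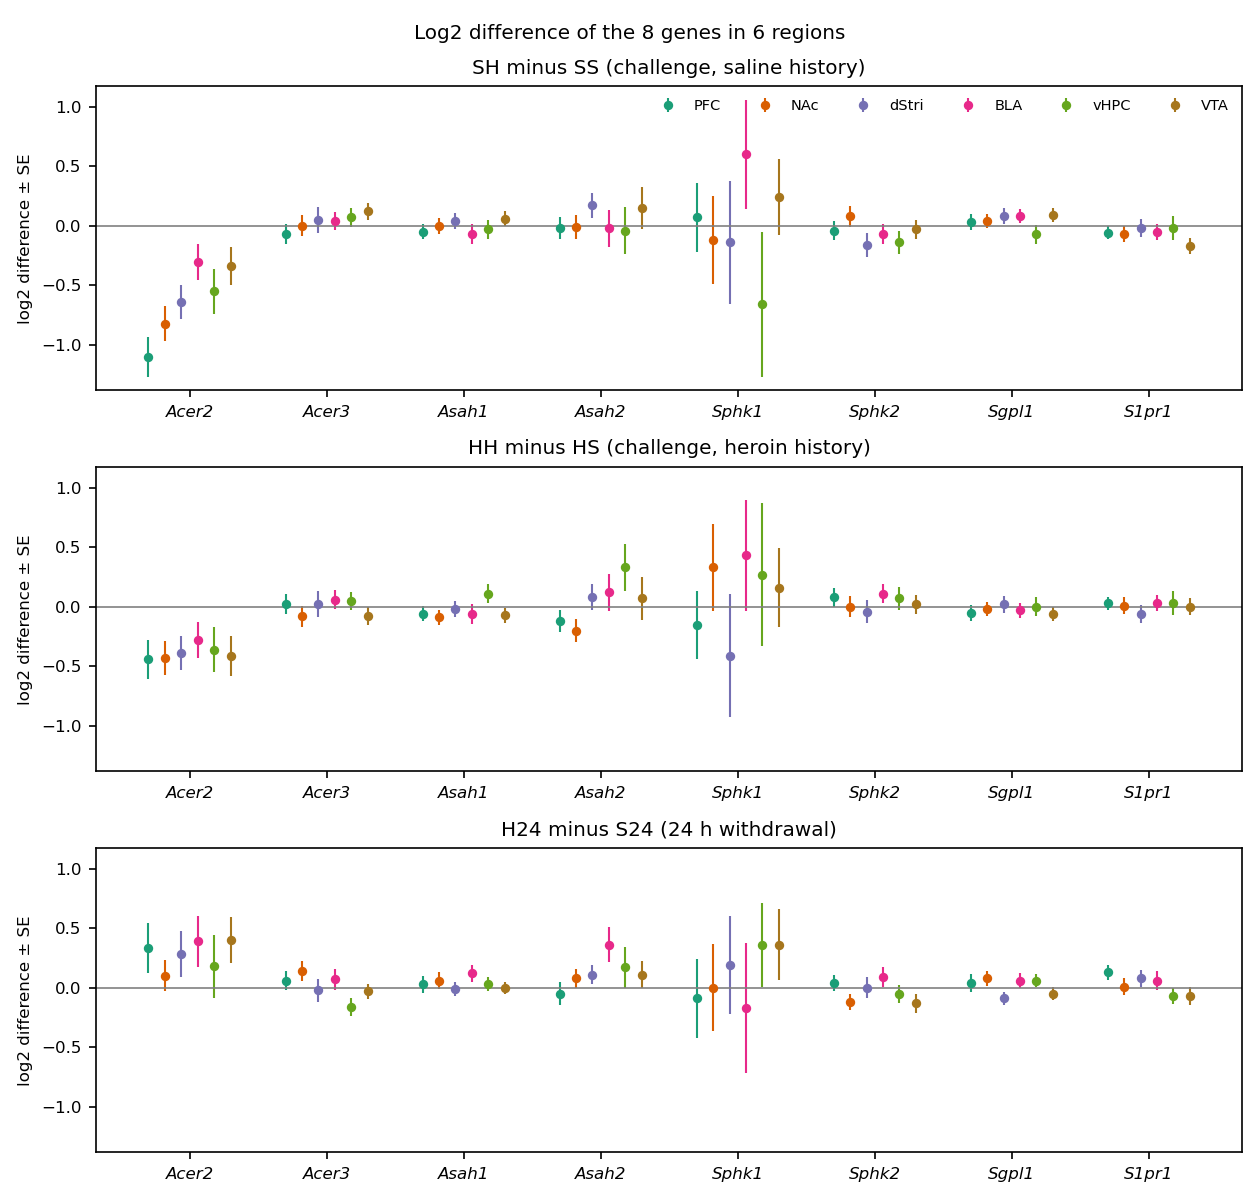
Log2 difference (vertical axis, on 1 scale, bars are ± SE) of the 8 genes in each of the 6 regions, for SH minus SS, HH minus HS and H24 minus S24. Acer2 lies below 0 in all 6 regions in both challenge panels and above 0 in all 6 at 24 h, while the other genes lie on both sides of 0 and Sphk1 has the widest errors.

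The wider sphingolipid pathway gave no called gene. Of the tests of all genes, 0% to 0.0416% were called per comparison by edgeR, so nothing is read from this about the pathway. The list held 59 further genes, of which 57 to 58 were tested per region in the 30 d comparisons and 56 to 58 at 24 h. None was called in any comparison by edgeR or DESeq2, and 10 to 22 of 343 to 346 gene-by-region tests per comparison had an unadjusted p under 0.05. The 22 were in the comparison of both histories over both challenges, where 5683 of 117787 tests of all genes had such a p. Over all comparisons 4.22% of the tests of all genes did. Of the tests of all genes, 51.2% were lower in SH than in SS mice. Between SH and SS mice the medians were -0.01 for de novo ceramide synthesis (56 lower and 44 higher), 0 for sphingomyelin and ceramide phosphate (34 lower and 32 higher), 0 for glycosphingolipid and lysosomal genes (56 lower and 58 higher) and -0.02 for the other ceramidases and sphingosine 1-phosphate handling (41 lower and 25 higher), beside 0 for all genes tested.
The pathway genes with the smallest p between SH and SS mice included Sgms2, a sphingomyelin synthase, which had 3.74 ± 0.675 CPM in SH and 2.65 ± 0.768 CPM in SS mice in PFC (0.49 ± 0.172, adjusted p of 0.608 by edgeR). Cers6, a ceramide synthase, had 82.23 ± 2.78 CPM in SH and 74.06 ± 5.55 CPM in SS mice in dStri (0.15 ± 0.0573, adjusted p of 0.729 by edgeR). On the lower side Cers2, the ceramide synthase of very long chains, had 27.23 ± 3.62 CPM in SH and 33.22 ± 5.91 CPM in SS mice in PFC (-0.29 ± 0.101), and Ugt8a, which makes the myelin lipid galactosylceramide, 24.59 ± 8.12 CPM in SH and 34.17 ± 14.0 CPM in SS mice (-0.47 ± 0.197), beside the lower oligodendrocyte markers of the same libraries.
Between HH and HS mice St8sia1 in PFC (0.20 ± 0.0711), Gba2 in NAc (0.18 ± 0.0786), Sgms1 in dStri (-0.13 ± 0.0531) and Smpdl3b in BLA (-0.33 ± 0.132) led, with adjusted p-values of 0.641 to 1 by edgeR.
At 24 h St3gal5, the synthase of the ganglioside GM3, had 61.40 ± 5.85 CPM in H24 and 74.89 ± 11.5 CPM in S24 mice in NAc, lower in 11 of 11 H24 mice than the S24 mean (-0.29 ± 0.0772, adjusted p of 0.267 by edgeR). Sgms2 had 14.91 ± 15.5 CPM in H24 and 3.97 ± 2.23 CPM in S24 mice in BLA (1.91 ± 0.573, adjusted p of 0.641 by edgeR), where the choroid plexus score was higher in H24 mice by 2.26 and the meningeal score by 0.28; without the libraries that stand apart the Sgms2 difference was 1.13 ± 0.448.
In the history comparisons St8sia1, a ganglioside sialyltransferase, had 29.43 ± 2.32 CPM in HS and 34.94 ± 3.69 CPM in SS mice in PFC (-0.25 ± 0.0713, adjusted p of 0.999 by edgeR), and 32.35 ± 3.06 CPM in HH and 38.70 ± 3.40 CPM in SH mice in BLA (-0.26 ± 0.0893, adjusted p of 0.981 by edgeR).

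The genes whose pattern was most like that of Acer2 over 191 libraries of the 30 d mice, with the mean of each region subtracted, were found among 12407 genes whose mean reached 1 CPM in every region. They were Vwf (Pearson r of 0.66), the clotting protein von Willebrand factor of endothelial cells, Podxl (0.61), a sialomucin of vessels, Flt1 (0.60), a receptor for vascular endothelial growth factor, Angptl4 (0.59), an inhibitor of lipoprotein lipase, and Abcb1a (0.59), the drug efflux pump of the blood-brain barrier. With the mean of region and group subtracted the values were 0.67, 0.60, 0.61, 0.57 and 0.57. Libraries of 1 mouse are not independent, and Flt1 is also on the endothelial and mural marker list.
At the other end stood Nes (-0.43), the intermediate filament nestin, Nr4a3 (-0.39), an immediate early nuclear receptor, and Cyth2 (-0.39), an exchange factor for ADP-ribosylation factors; with the group mean subtracted too these were -0.27, -0.21 and -0.34. The other members of the set that passed the minimum had r between -0.07 and 0.02.
Set against marker scores in the same libraries, with the mean of region and group subtracted, Acer2 had r of 0.53 with the endothelial and mural score, 0.27 with the oligodendrocyte precursor score, 0.24 with the meningeal, 0.22 with the blood and 0.21 with the microglia score, -0.07 with the astrocyte score, -0.18 with the oligodendrocyte score and -0.29 with the excitatory neuron score. Whether the Acer2 reads come from vessel cells was not tested.
None of these 8 genes was called in the challenge comparisons or at 24 h. Vwf differed by -0.73 ± 0.215 in PFC and -0.63 ± 0.256 in NAc between SH and SS mice, and by -0.66 ± 0.213 in PFC between HH and HS mice, with a smallest adjusted p of 0.374 among these 3 by edgeR. The correlation that chose these genes was taken over the same 30 d libraries with the challenge difference left in, so a direction shared with Acer2 between challenged and control mice is part of the choice. Podxl and Flt1 were lower in SH than in SS mice in all 6 regions (-0.13 to -0.37 and -0.09 to -0.26), and lay on both sides of 0 between HH and HS mice. Between H24 and S24 mice Vwf was positive in all 6 regions (0.03 to 0.56), as Acer2 was.

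**Figure D4:**
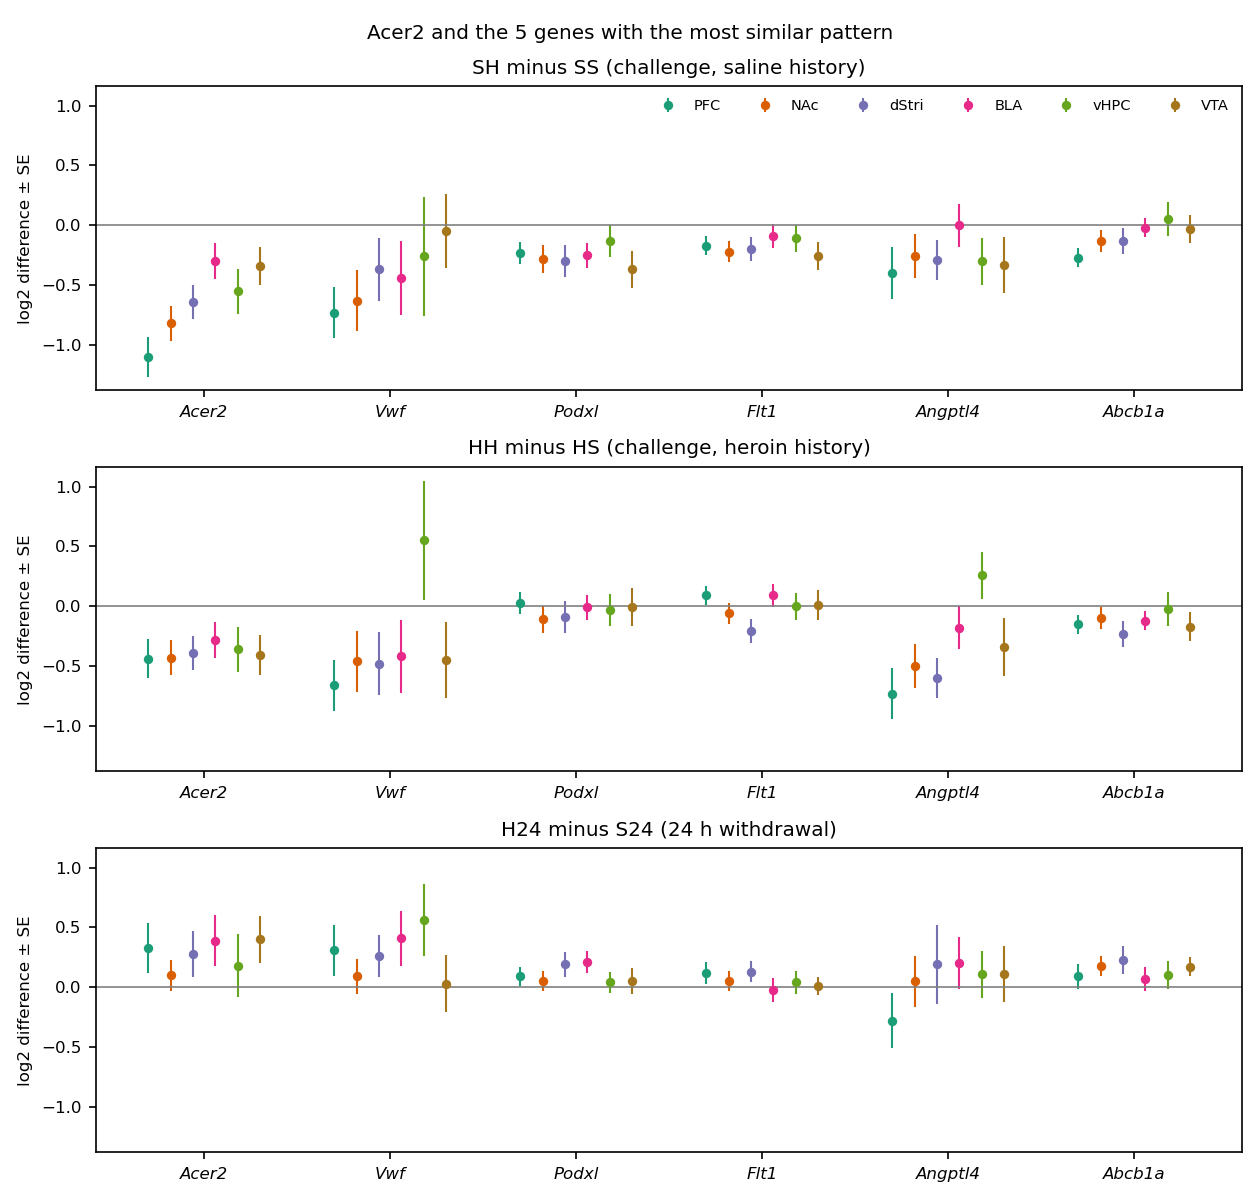
Log2 difference (vertical axis, on 1 scale, bars are ± SE) of Acer2 and of the 5 genes with the highest correlation to it, in each of the 6 regions, for SH minus SS, HH minus HS and H24 minus S24. In PFC the SH minus SS value is -1.10 for Acer2, -0.73 for Vwf and between -0.17 and -0.40 for the other 4 genes.

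Levels differed between regions for all 8 genes, in patterns of their own. In S24 mice, fitted together over the regions, 42.0% of all gene-by-pair tests were called, so a count of called pairs near 6 of 15 is no more than the background. Unless the mouse is named as a block, the region fits treat the libraries of 1 mouse as independent. Acer2 was called in 9 of 15 pairs. Its levels lay in 2 tiers: VTA with 16.82 ± 4.91 CPM (2.35 CPM per kb of exon), dStri with 15.64 ± 7.14 CPM and NAc with 14.83 ± 4.22 CPM were above PFC with 9.15 ± 4.67 CPM, vHPC with 8.71 ± 5.66 CPM and BLA with 7.38 ± 0.950 CPM (SD, n = 8, and 7 in BLA). Neighbours within a tier were not called in S24 mice (adjusted p of 0.548 to 0.895 by edgeR), and PFC lay below NAc, with a log2 difference of -0.70 ± 0.246 (SE) and an adjusted p of 0.0187 by edgeR. With the mouse as a block, which the shared animals allow, that adjusted p was 4.21e-07, and again 9 pairs were called. The BLA values lack S24 mouse 37, which had 20.40 CPM in PFC and 22.33 CPM in vHPC. The medians were 7.55 CPM in PFC, 6.90 CPM in vHPC and 7.16 CPM in BLA. BLA minus vHPC was 0.06 ± 0.121 with the mouse as a block, in place of -0.25 ± 0.257. In SS mice 13 of the 15 pairs were called, and the tiers were not uniform there: VTA was above NAc (-0.46 ± 0.146 for NAc minus VTA, adjusted p of 0.00595 by edgeR) and dStri (-0.33 ± 0.145 for dStri minus VTA, adjusted p of 0.0466 by edgeR), and vHPC was below PFC (0.57 ± 0.149 for PFC minus vHPC, adjusted p of 0.00214 by edgeR) and BLA (0.54 ± 0.149 for BLA minus vHPC, adjusted p of 0.00743 by edgeR). The difference between S24 and SS mice in these pairs was not tested.

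Asah2 stood high in VTA alone. Its level in VTA was 92.18 ± 18.64 CPM, with every S24 mouse between 67.55 and 124.1 CPM, and between 16.01 and 19.88 CPM as means of the other 5 regions. The log2 differences of the other regions from VTA were -2.21 to -2.52, with adjusted p-values of 2.82e-25 to 7.72e-24 by edgeR. With the mouse as a block the differences were -2.21 to -2.54, with adjusted p-values of 4.38e-23 to 8.79e-22 by edgeR. Asah1 also peaked in VTA, at 74.23 ± 4.39 CPM, against 48.47 to 58.35 CPM elsewhere, and so did Acer3, at 44.84 ± 4.70 CPM in VTA against 32.34 ± 3.86 CPM in vHPC, the next region (-0.47 ± 0.0936 for vHPC minus VTA, adjusted p of 2.91e-05 by edgeR). Acer3 was lowest in dStri, at 17.04 ± 2.28 CPM, one of the regions where Acer2 was high.
Sphk1 had 5.01 ± 2.47 CPM in VTA, 1.31 ± 0.729 CPM in vHPC and 0.386 ± 0.273 CPM in dStri, and the log2 difference of dStri from VTA was -3.70 ± 0.443 (SE, adjusted p of 3.77e-10 by edgeR), wider than any of Asah2. Sphk2 was highest in vHPC (31.07 ± 3.25 CPM) and VTA (30.03 ± 3.94 CPM), 0.05 ± 0.0750 apart on the log2 scale (SE, adjusted p of 0.633 by edgeR). Sgpl1 spanned 27.99 ± 1.54 CPM in BLA to 34.66 ± 2.10 CPM in VTA, a narrow range.
Per kilobase of exon S1pr1 was the most abundant of the set in all regions, from 41.82 ± 2.10 CPM per kb in PFC to 53.83 ± 5.43 CPM per kb in vHPC. Acer2, at 1.03 to 2.35 CPM per kb, lay near Acer3, at 1.11 to 2.93 CPM per kb, and below Asah1, at 14.30 to 21.90 CPM per kb. The number of called pairs was 11 for Acer3, 10 for Sphk1, 8 each for Asah1, Asah2 and Sphk2, 7 for Sgpl1 and 6 for S1pr1. With the mouse as a block it was 10 for S1pr1, 11 for Sphk1 and 9 for Asah2, and the same for the others.

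**Figure D5:**
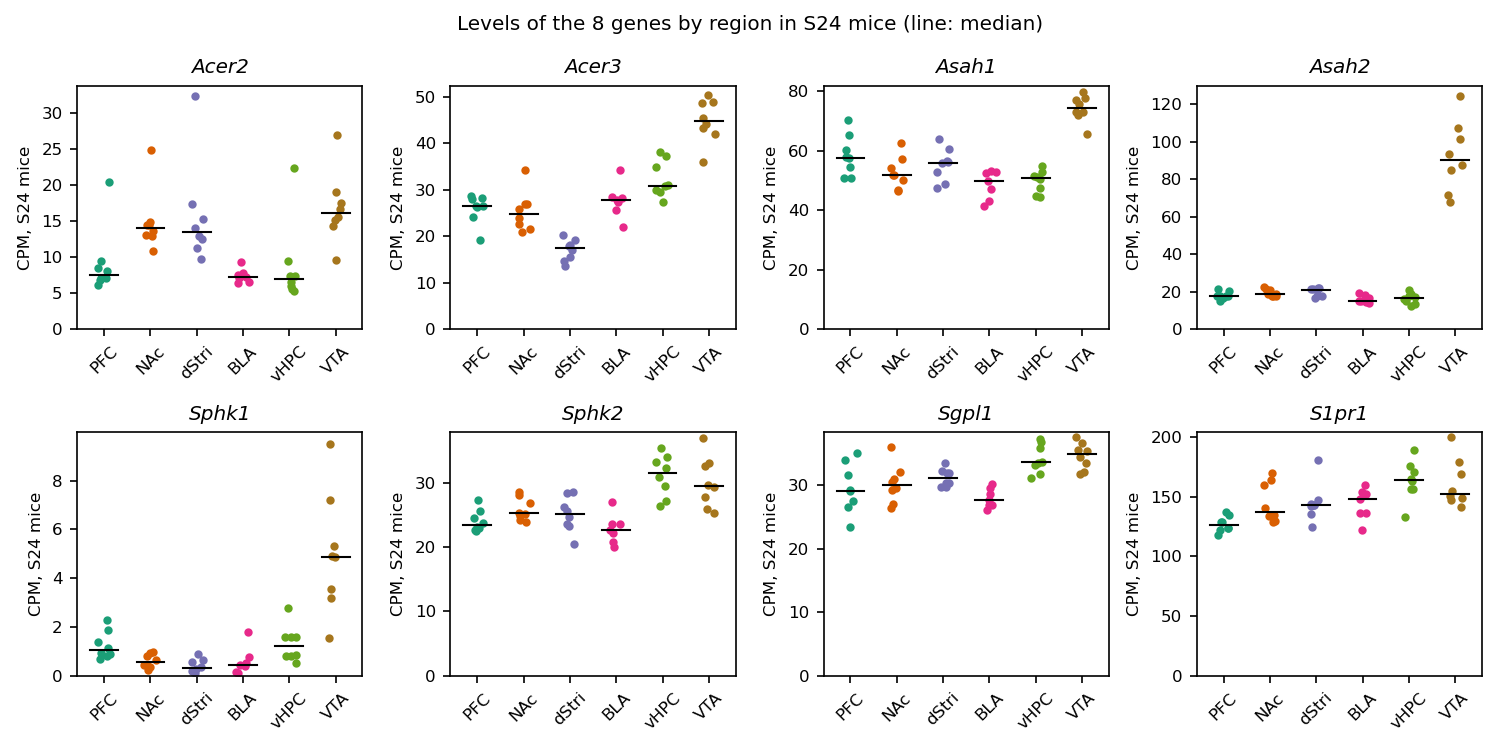
CPM (vertical axes, linear, from 0) of the 8 genes in each S24 mouse, by region, with the median as a line. Asah2 and Sphk1 stand out in VTA, and Acer2 is higher in NAc, dStri and VTA than in PFC, BLA and vHPC.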

How the data were processed

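RNA was taken from 6 brain regions of 51 mice; per the labels' protocols total RNA was depleted of ribosomal RNA and sequenced in a strand-specific way. The authors deposited raw counts per gene for 305 libraries; FastQC, HISAT2, SAMtools and HTSeq, with build mm10, are named by the submitters' processing notes, without versions, and the strand setting and annotation of the counting are not given in the sources used here. Their deposited CPM tables were not used. Gene symbols came from GENCODE M21, which named 52403 of 52636 genes. The library under 5000000 counts was left out, and libraries more than 4 scaled MADs from their region's profile, or nearest to another region, were left out as an alternative.

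Per region, genes were filtered at a minimum count of 10 (17955 to 19976 genes tested), scaled by TMM and tested with edgeR's quasi-likelihood test (edgeR 4.0.16, limma 3.58.1, R 4.3.3), with p adjusted by Benjamini and Hochberg over all genes of a region and contrast; a gene is called at an adjusted p under 0.05. Group fits used all 4 groups of the 30 d mice. DESeq2 1.42.0, RLE scaling, no filter, marker scores or the sample code set as covariates, the named groups alone and leaving out 1 library were alternatives. CPM values are counts relative to the TMM-scaled library total, and log2 CPM adds a prior count of 1. Counting intervals are not given, since groups are compared over mice.

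The members, pathway list, marker lists and tests were chosen with earlier results of these data known. Named pathway genes are the 2 higher and 2 lower ones with the smallest p per contrast; genes like Acer2 are the 5 highest and 3 lowest by Pearson r. Tested on simulated PFC counts for SH against SS (19976 genes), the test called 74% of 100 genes changed by 0.6 and 86% of 100 changed by 1 on the log2 scale, and 3 unchanged genes. The adjustment of p depends on how many genes change, and the real comparison called 3 genes in PFC. These shares are therefore not the power of the real tests. Libraries of 1 group and region differed by more than counting error in all 1156 pairs (lowest chi-square per degree of freedom 7.10). Regions of 1 mouse are paired by the animal itself; over all genes, deviations of its libraries had a median correlation of 0.006 over 115 pairs. Permutation tests used Python 3.11.15 and scipy 1.17.1.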

Additional observations from a re-analysis of the deposited data

Results flagged for a closer look

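Of 240 groups of 7 or 8 libraries, 14 (5.83%) had 1 library far from the others by Dixon's 95% limit, and chance flags about 1 in 20 groups. The H24 groups of 11 mice were not examined this way. Of the 14, 3 belong to 1 animal and 1 gene: Acer2 in S24 mouse 37 stood at 20.1 CPM in PFC against 9.39 in the next mouse, at 25.8 CPM in NAc against 15.37, and at 21.6 CPM in vHPC against 9.18.

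Acer2 was also low in vHPC of SH mouse 19, at 4.8 CPM. Sphk1 stood at 11.2 CPM in vHPC of HH mouse 18, against 1.46 CPM in the next mouse, in a library that stands apart from its region. Acer3 was low in PFC of HS mouse 11 (22.3 CPM) and of S24 mouse 41 (19.2 CPM). Asah1 was high in PFC of HH mouse 7 (72.6 CPM) and low in dStri of HH mouse 9 (44.8 CPM, a library that stands apart) and of SH mouse 10 (41.5 CPM). Asah2 was low in dStri of HH mouse 16 (12.7 CPM) and in VTA of HS mouse 13 (57.5 CPM). Sgpl1 was low in NAc of SS mouse 22 (23 CPM) and S1pr1 high in vHPC of HS mouse 3 (168 CPM).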

How the results depend on the processing

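Acer2 was lower in heroin-challenged mice under all alternatives run, 41 in PFC, NAc and dStri and 9 in the other regions, with SH against SS at -1.15 to -0.92 in PFC and -0.30 to -0.27 in BLA, and HH against HS at -0.58 to -0.33 in PFC and -0.48 to -0.17 in dStri. No alternative called any of the other 7 genes or any pathway gene. Of all tests over the 6 regions, 0.00340% were called for SH against SS, 0.00424% for HH against HS, 0.0416% for both challenges and 0 elsewhere, and these shares moved. With DESeq2 they were 0.0204%, 0.0119% and 0.100%, with 0.00170% for HH against SH and for pooled history, 0.000849% for the interaction and 0.0370% at 24 h. Without a filter pooled history had 0.00398% and the 24 h comparison 0.00139%. With the meningeal score as covariate they were 0.000849%, 0.00255% and 0.0119%, with 0.00270% at 24 h, with the endothelial and mural score 0.000849%, 0.00255% and 0.0195%, and with the oligodendrocyte score 0.00180% at 24 h. With the SH and SS mice alone, SH against SS had 0.00557%. The cause was not tested. Acer2 in NAc at 24 h reversed to -0.06 with the endothelial and mural score. Leaving out 1 library, in PFC, NAc and dStri of the 30 d mice only, gave 0.00254% to 0.0136% for SH against SS (highest without PFC SS mouse 22; also moved by over 1.5 times without PFC SS mouse 8, SH mouse 29 or HH mouse 5), 0.00169% to 0.0102% for HH against HS (highest without PFC HS mouse 2, lowest without HH mouse 16 or 21; also moved without HS mouse 12, 13 or 23 or HH mouse 5 or 7), 0.0373% to 0.0652% for both challenges (moved without PFC SH mouse 4 or 29 or HH mouse 5), 0 to 0.000847% for HS against SS and for HH against SH, 0 for the rest, and -0.14 to 0.06 for Acer2 in NAc between HS and SS, where 6 mice left out singly (HS mice 13, 20 and 23 with 0.02, 0.06 and 0.01, SS mice 15, 26 and 28 with 0.06, 0.01 and 0.02) turned the sign. Refits across all genes without 1 library were not run in BLA, vHPC or VTA of the 30 d mice, and for the 24 h mice only without S24 mouse 37, chosen after its values were seen: that gave 0.0358% of tests called, all in NAc, and 0.25 to 0.61 for Acer2. With the replicate block for the mouse, S1pr1 had 10 called region pairs in place of 6, and no other of the 8 genes moved by over 1.5 times; Sgpl1 had 3 pairs in SS mice and S1pr1 3 without a filter. No paired analysis was possible because treatment groups share no mice.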
